A study of Homo sapiens with 2 samples.

Results

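NR3C1, NR3C2, FKBP5 and KLF9, 4 genes of the glucocorticoid pathway, were examined for binding of FOXO3 in U87MG, a human glioblastoma cell line. Each gene was given a fixed window of the genome (build hg19), and a peak belonged to a gene when its summit, the position of highest signal, lay inside that window. Of the 9717 peaks of the list, 3 fell in the 4 windows. One lay at NR3C1 and 2 at KLF9, while NR3C2 and FKBP5 held no called peak. The genes were chosen by the presence and fold enrichment of their peaks in this same list, so all values below are descriptions and no test was made on them.

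The study tagged the endogenous FOXO3 protein with FLAG by genome editing and recovered the chromatin bound to it with an antibody against the tag, an approach called CETCh-seq. It comprises 2 libraries, a FLAG immunoprecipitation and input chromatin. The cells of both were U87MG, labelled as wild type in genotype and treated with LY294002, which blocks phosphoinositide 3-kinase. The labels do not say whether the tagged cells were 1 clone or whether the input came from tagged cells, and with 1 library of each kind there is no replicate and no untreated group. The list gives no read totals, and the depth it shows is the lowest background of the peak caller, 3.65 tags per position.

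NR3C1 encodes the glucocorticoid receptor, a nuclear receptor that waits in the cytoplasm in a complex with heat shock proteins and moves to the nucleus when it binds cortisol. NR3C2 encodes its close relative, the mineralocorticoid receptor, which binds aldosterone and also cortisol. FKBP5 encodes a cochaperone of the receptor complex that lowers its affinity for hormone. KLF9 encodes a zinc finger transcription factor. FKBP5 and KLF9 are well known targets that the receptor induces. FOXO3 belongs to the forkhead family. Phosphoinositide 3-kinase acts through AKT to hold it in the cytoplasm, so an inhibitor of the kinase lets it enter the nucleus. FOXO proteins recognise a core of the form GTAAACA.

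The promoters of the genes with peaks are shown first, because they are the sequences of these genes in which the forkhead core was found. They come from RefSeq on build GRCh38.p14, each with 250 bases before and 50 after an annotated start, and positions are counted from that start. Capitals mark GTAAACA or the related ATAAACA, which here both appear as their reverse complements TGTTTAC and TGTTTAT. The coordinates of this build were not converted to those of the peaks. The NR3C1 start shown lies 32.2 kb downstream of the farthest start of the gene in this build. In hg19 the NR3C1 summit lay 79.5 kb downstream of the farthest 5′ end. Although the builds differ, these distances do not place the NR3C1 matches at the peak. For KLF9 and KLF9-DT, how the matches lie relative to the peaks was not analysed here. Because KLF9-DT, a divergent non-coding transcript, starts inside KLF9 on the opposite strand, its promoter is given as well. It is not counted among the promoters of the 4 genes. Other annotated genes overlap each of the 4, and their promoters were not examined singly, so the genes are not compared through KLF9-DT.
NR3C1, chr5:143403234-143403533, minus strand: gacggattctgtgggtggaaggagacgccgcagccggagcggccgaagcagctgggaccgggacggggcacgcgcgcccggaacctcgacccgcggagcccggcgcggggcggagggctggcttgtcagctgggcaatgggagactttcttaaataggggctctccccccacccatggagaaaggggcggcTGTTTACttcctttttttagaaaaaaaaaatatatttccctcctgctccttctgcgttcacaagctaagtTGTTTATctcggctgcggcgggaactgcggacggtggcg
KLF9, chr9:70414608-70414907, minus strand: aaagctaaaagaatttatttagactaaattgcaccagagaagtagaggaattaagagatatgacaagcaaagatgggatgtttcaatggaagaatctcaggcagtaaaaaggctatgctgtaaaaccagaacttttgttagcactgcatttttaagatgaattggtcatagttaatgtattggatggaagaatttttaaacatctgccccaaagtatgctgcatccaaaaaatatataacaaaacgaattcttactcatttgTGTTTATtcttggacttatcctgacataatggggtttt
KLF9-DT, chr9:70413940-70414239, plus strand: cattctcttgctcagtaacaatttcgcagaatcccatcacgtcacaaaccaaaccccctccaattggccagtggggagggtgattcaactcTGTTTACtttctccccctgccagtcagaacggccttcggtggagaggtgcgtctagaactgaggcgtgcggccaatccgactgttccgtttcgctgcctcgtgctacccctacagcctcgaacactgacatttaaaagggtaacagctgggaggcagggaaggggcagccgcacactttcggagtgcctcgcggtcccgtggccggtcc

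The NR3C1 promoter above held TGTTTAC from position -59 to -53 and TGTTTAT from 12 to 18. It is the one farthest downstream of the 7 NR3C1 promoters in the table, and the other 6 held neither word. The only KLF9 promoter in the table had TGTTTAT from 13 to 19, within the transcribed part. In KLF9-DT, TGTTTAC lay from -159 to -153. None of the 4 NR3C2 promoters and neither of the 2 FKBP5 promoters held GTAAACA or ATAAACA on either strand. Over all 35116 promoters of the table, 3.42% held GTAAACA and 4.24% held ATAAACA on at least 1 strand. Among the 14 promoters of the 4 genes, 1 held GTAAACA and 2 held ATAAACA. The shorter core TAAACA, which is contained in both words, was found in 2 of the 14 and in 12.3% of all. The full palindrome of the glucocorticoid receptor, AGAACA and TGTTCT with 3 bases between them, was found in none of the 14 and in 1 promoter of the whole table. By gene, GTAAACA was found for NR3C1, and for 4.19% of all 27305 genes. ATAAACA was found for NR3C1 and KLF9, and for 5.16% of all genes. Of the 14 promoters, 7 belong to NR3C1 and some overlap in sequence. A gene with more promoters has more places for a match, so nothing is read from these counts.

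The single peak at NR3C1 was among the most enriched of the list. It lay on chromosome 5 from 142735252 to 142735933 (hg19), 682 bp wide, inside a window of 179 kb from 142647000 to 142826000. Its fold enrichment, the ChIP signal at the summit over the background estimated by the authors' peak caller, was 23.6, and its −log10 q was 112. From the fold and p-value, the ChIP pileup at the summit was recovered as 109 tags over a background of 3.65 tags, which gives the fold a 95% Poisson interval (exact) from 19.5 to 28.5. Such intervals cover counting error only, and sequenced tags are not independent molecules. By fold the peak ranked 4 of 9717 and second of the 647 peaks of chromosome 5.

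NR3C1 is read on the minus strand, and the summit at 142735531 lay 79.5 kb downstream of its farthest 5′ end at 142815077. The peak was therefore not at that 5′ end. In the RefSeq annotation of GRCh38.p14 the 7 annotated starts of NR3C1 extend over 32.2 kb and the gene is 158 kb long. Set beside each other, the distance in hg19 is longer than the stretch of starts and shorter than the gene, although the builds differ and whether the summit is exonic or intronic was not analysed here. The summit was the only one in the window, with 88.5 kb to its lower edge and 90.5 kb to its upper edge.

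The rank of the NR3C1 peak depended on the measure. By pileup it ranked 142 of 9717, by −log10 q 43 and by width 123. Its background, the lowest of the list, was that of 1859 peaks (19.1%). Among those 1859 peaks the NR3C1 peak had the highest pileup and fold. The next were 2 peaks of 72 tags each, on chromosomes 4 and 11, with a fold of 15.7 (95% Poisson interval 12.3 to 19.7), so the intervals overlapped slightly. The median over the 1859 peaks was 18 tags and a fold of 4.08.

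The peaks ranked above it had far more tags. The 3 peaks of higher fold had 259, 320 and 380 tags over backgrounds of 5.45, 12.1 and 14.9 tags. The list held 69 peaks with a pileup within 10% of that at NR3C1, and their folds ran from 2.89 to 23.6 with a median of 8.22. The NR3C1 peak was the one with the highest fold of these 69.

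**Figure D1:**
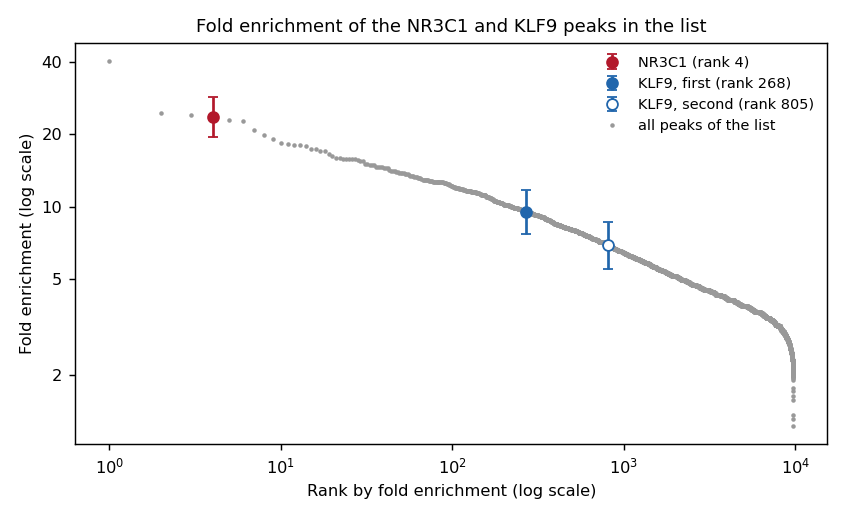
Fold enrichment (log scale) of all 9717 peaks against their rank by fold (log scale), with the NR3C1 peak and both KLF9 peaks in colour and bars for the 95% Poisson interval. NR3C1 sits at rank 4, and the KLF9 peaks lie at ranks 268 and 805, still on the upper part of the curve.

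KLF9 held 2 peaks close together. The first, on chromosome 9 from 73028679 to 73029438, spanned 760 bp. With 91 tags over a background of 8.66, its fold reached 9.53 (95% Poisson interval 7.69 to 11.7). The second, from 73035693 to 73036023, spanned 331 bp. With 77 tags over a background of 10.2, its fold reached 6.94 (95% Poisson interval 5.49 to 8.65). Their −log10 q values were 54.4 and 35.9. The intervals of fold overlapped, but each fold lay outside the interval of the other peak, and the difference was not tested.

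The summits were 6.88 kb apart, at 73028948 and 73035828, with 6.25 kb between the called intervals. KLF9 is on the minus strand in RefSeq, so the second peak lay farther in the 5′ direction. The start of KLF9 in hg19 was not used here, and neither peak was assigned to the promoter or the gene body. Of all neighbouring summits on chromosomes 1 to 22 and X, 10.9% were no farther apart than this pair. There were 1048 such pairs, and 66 of them had a −log10 q of 10 or more in both peaks. In 8 pairs within 10 kb, both peaks reached at least the fold of the weaker KLF9 peak. The KLF9 pair set this cut and so is 1 of these by construction, and the count is a description only.

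The peaks at KLF9 ranked 268 and 805 by fold, 190 and 435 by −log10 q, and 219 and 339 by pileup. Width separated them most, with rank 60 for the first and 2656 for the second. On chromosome 9 they ranked 11 and 39 of 327 peaks by fold. In both KLF9 peaks the summit was nearer to the lower end of the interval, at 35.5% and 41.1% of the width, as it was at NR3C1 with 41.1%. How often this holds over the whole list was not analysed here, so nothing is read from it.

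Pileups at the 3 peaks were more alike than their folds. The NR3C1 pileup was 1.20 times that of the first KLF9 peak and 1.42 times that of the second, while its fold was 2.48 and 3.41 times as high. The background at KLF9 was 2.37 times the lowest level at the first peak and 2.80 times at the second. Set over the lowest background, the KLF9 peaks would have folds of 19.8 and 16.8, against 23.6 at NR3C1. These folds only restate the pileups, which ranked 219 and 339 at KLF9 and 142 at NR3C1. Every other peak with a background above the lowest would rise as well.

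**Figure D2:**
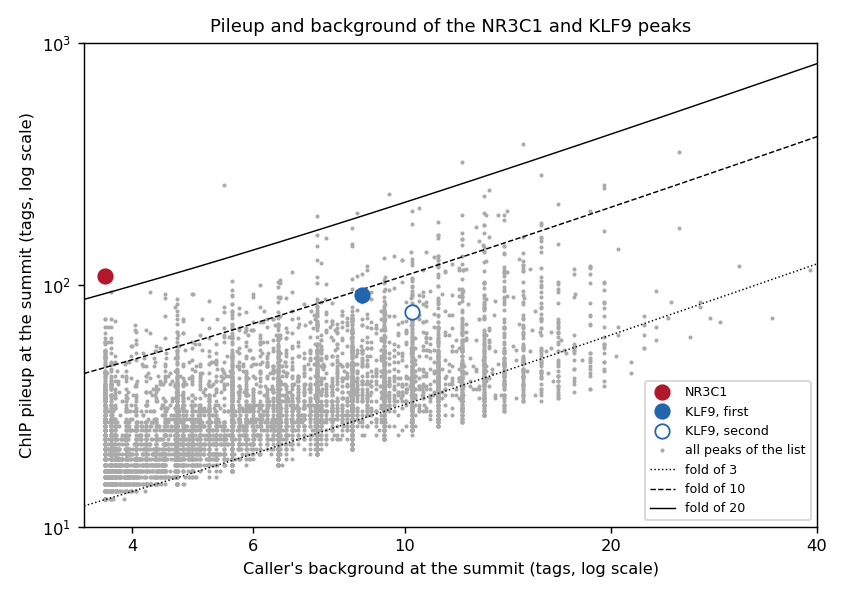
ChIP pileup at the summit (tags, log scale) against the background of the caller (tags, log scale) for the peaks of the list with a background under 40 tags, which leaves out 17, with lines of equal fold. The NR3C1 peak is at the lowest background with 109 tags, and the KLF9 peaks have 91 and 77 tags at backgrounds of 8.66 and 10.2.

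All 3 peaks had a fold of 5 or more, as had 22.1% of the list, and a −log10 q of 10 or more, as had 25.5%. A fold of 10 or more was reached by 1 of the 3, the NR3C1 peak, and by 2.26% of the list. The genes were chosen with these values in view, so nothing is read from the counts.

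No peak was called at NR3C2 or FKBP5. The NR3C2 window on chromosome 4 runs over 385 kb, from 148989000 to 149374000, and the FKBP5 window on chromosome 6 over 176 kb, from 35531000 to 35707000. Stretches of the same length laid end to end along chromosomes 1 to 22 and X held at least 1 summit in 50% of 7828 cases for the length of NR3C2. For the length of FKBP5 they did so in 31.8% of 17137 cases. An empty window of either length was thus common in this list. The called count in each window is exactly 0. With a floor of 3 set for such a count, the upper limits would be 0.779 per 100 kb at NR3C2 and 1.70 per 100 kb at FKBP5. Both limits lie above the 0.32 per 100 kb of the list. The limits follow from the window lengths alone, so this holds for any empty window as short.

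For the length of the NR3C1 window, 31.9% of 16850 stretches held a summit. The KLF9 window was the shortest at 51 kb, from 72989000 to 73040000, and 12.5% of 59167 such stretches held at least 1 summit and 2.56% at least 2. Counted per length, KLF9 had 3.92 peaks per 100 kb and NR3C1 0.559. These densities depend on the edges of the windows, and with 50 kb added on each side they were 1.32 at KLF9 and 0.358 at NR3C1. These stretches include assembly gaps, and the genes were chosen with the peak list known, so the shares describe the list and test nothing.

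The weakest peaks of the list show how low a called signal was. The smallest pileup called was 13 tags at the lowest background, a fold of 3.01. Near a background 2 times as high the smallest was 20 tags, and near 3 times it was 26 tags. The background inside the NR3C2 and FKBP5 windows is not known from the list. Sites there under these levels could have gone uncalled.

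The empty windows lay in longer stretches without summits. Around NR3C2 the nearest summits were 60.4 kb below and 811 kb above the window, which leaves 1257 kb between them. Around FKBP5 they were 389 kb below and 702 kb above, 1268 kb apart. A window without a summit must lie in a gap longer than itself, and long gaps hold more such windows, so these lengths are given as a description only.

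The peaks just outside the windows were weaker in fold than the NR3C1 peak. Since that peak ranked 4 of 9717, the same holds for nearly any peak of the list. Next to NR3C2 the fold was 5.76 below (95% Poisson interval 4.34 to 7.50), where 53 tags stood over 8.38, and 2.73 above. Those next to FKBP5 had folds of 5.16 below and 2.99 above. Around NR3C1 the nearest peak below, at 161 kb, reached 3.04 (1.96 to 4.54), and the nearest above, at 206 kb, reached 6.34 (4.37 to 8.91). The second KLF9 peak lay 4.17 kb inside the upper edge of its window, nearer to an edge than any other peak in the 4 windows.

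One peak near KLF9 had a higher fold than both peaks inside the window, though fewer tags. It lay 408 kb above the window, from 73447503 to 73447889. Its 49 tags stood over the lowest background, 3.65 tags, and its fold of 10.7 (95% Poisson interval 8.01 to 14.1) overlapped in interval with both KLF9 peaks. Below the window the nearest summit was 253 kb away, with a fold of 3.88.

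Within 1 Mb on either side, NR3C1 had 10 further peaks, NR3C2 had 7, FKBP5 had 5 and KLF9 had 3. In the same order these are 0.5, 0.35, 0.25 and 0.15 per 100 kb, against 0.32 for the list. The rates of their chromosomes were 0.358, 0.336, 0.25 and 0.232 per 100 kb. The highest fold among the 10 near NR3C1 was 7.07, and their median was 4.75. No peak lay within 50 kb of any of the 4 windows, and within 100 kb there was 1, that near NR3C2. The NR3C1 summit stood 249.6 kb from the next below and 296 kb from the next above, and 87.4% of summits had a nearer neighbour.

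**Figure D3:**
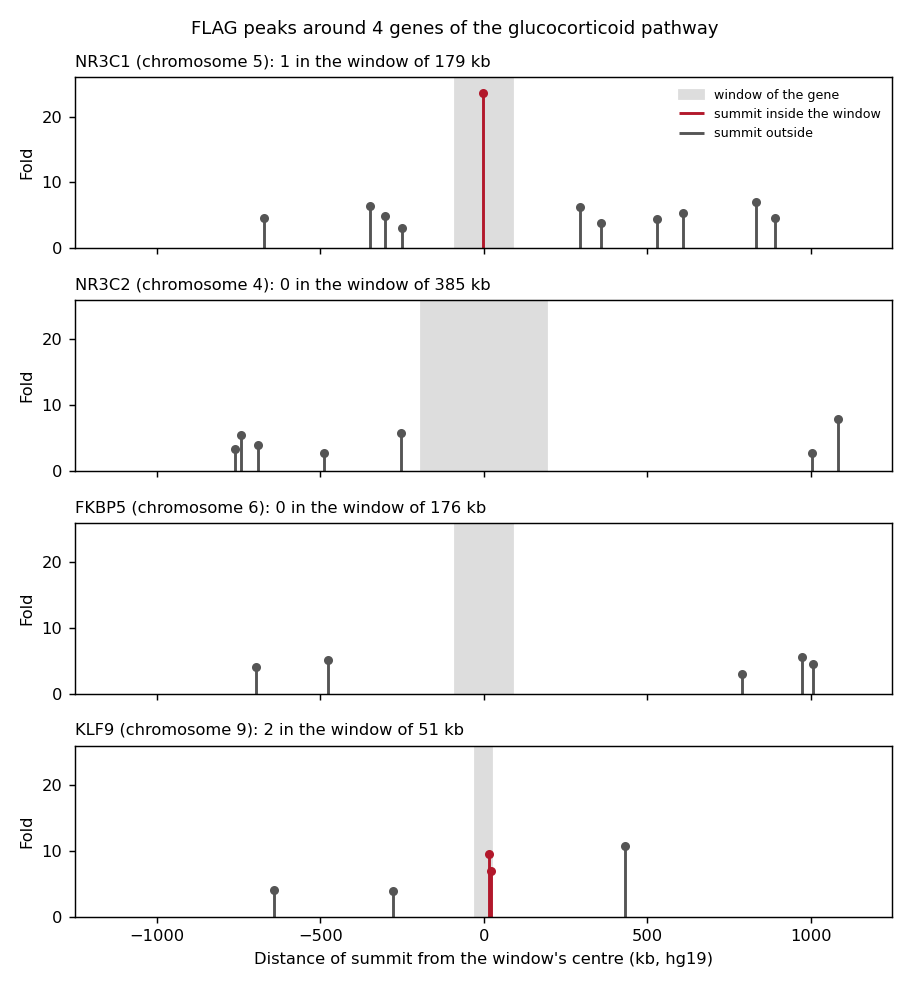
Fold enrichment of each FLAG peak within 1 Mb of the 4 windows, against the distance of its summit from the window's centre (kb), with windows in grey and summits inside them in red; transcription of all 4 genes runs from right to left. NR3C1 has 1 tall peak of fold 23.6 near its centre, KLF9 has 2 near its upper edge, and NR3C2 and FKBP5 have none.

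**Figure D4:**
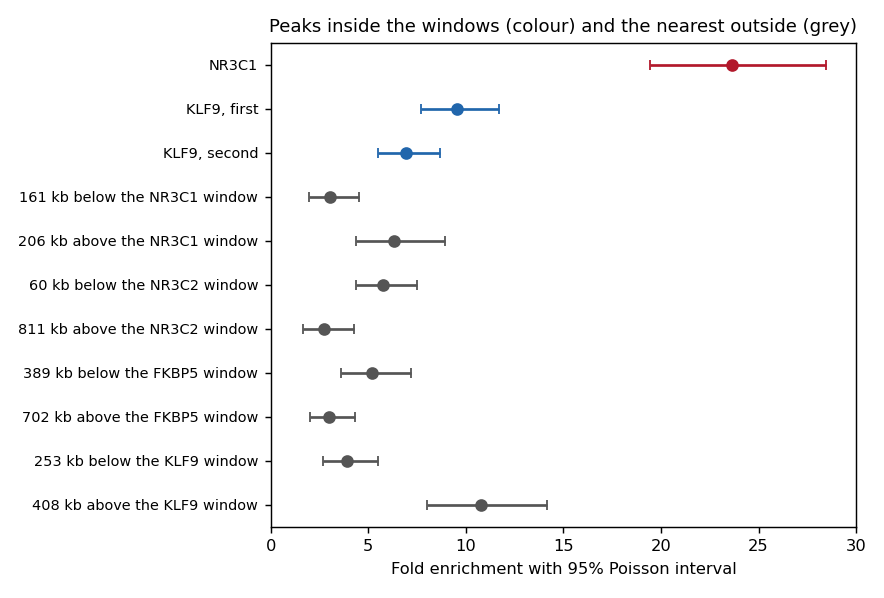
Fold enrichment with 95% Poisson interval for the 3 peaks inside the windows (colour) and for the nearest peak below and above each window (grey). The NR3C1 interval from 19.5 to 28.5 overlaps none of the others, whereas the peak 408 kb above KLF9 overlaps both KLF9 peaks. The genes were chosen with these folds known, so the overlaps are a description and test nothing.

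Other genes of the pathway could only be described by promoter sequence, since no annotation of hg19 was used here to place them against the peaks. Of 40 listed chaperones, steroid enzymes and transporters, coregulators and target genes, 30 matched the RefSeq promoter table. GTAAACA was found on at least 1 strand for 2 of these 30 genes (6.67%), against 4.19% of all 27305 genes of the table. They were HSP90AA1, which encodes a heat shock protein of the receptor complex, and TSC22D3, a target that encodes the leucine zipper protein GILZ. By group this was 1 of 6 chaperones and cochaperones, 0 of 3 genes of steroid conversion and uptake, 0 of 8 coregulators and 1 of 13 targets. A gene with more promoters has more places for a match. Counted by promoter, 2 of 49 held GTAAACA (4.08%), against 3.42% of all 35116, so nothing is read from these counts.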

How the data were processed

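FLAG ChIP-seq of FOXO3 was analysed from 1 deposited peak list of 1 library. Per the submitters' processing notes, Trimmomatic, HISAT2 and MACS2 were used with build hg19. Not given in the sources used here are parameters, thresholds, read totals and the control library. The deposited score, the deposited fold ratio and the deposited −log10 p-values and −log10 q-values are the authors', per peak. They were used to describe and rank peaks within this list. A ratio or significance that the caller gives depends on its background estimate.

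In MACS2, 1 is added to pileup and to background before their ratio is taken, and p is a Poisson tail. Pileup and background were solved from fold and p together, returning the deposited −log10 p-value within 0.001 in each peak, and the step was tested on simulated data. Intervals are 95% exact Poisson intervals of the pileup, and the floor for a count of 0 is 3. Starts count from 1. Calculations used Python 3.11.15 with numpy 2.4.6, pandas 2.3.3 and scipy 1.17.1.

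Every peak in the windows is named. The search of RefSeq promoters was added after the peaks were seen. Members, windows and lists were chosen with earlier results of these data known. Alternatives were stricter thresholds, wider windows, overlap instead of summit, merged peaks, and folds without pseudocount or local background.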

Additional observations from a re-analysis of the deposited data

How the results depend on the processing

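Of 36 alternative settings over 10 results, 32 stayed within 1.5 times the reported value or, for folds, within its Poisson interval, and 4 moved. The number of peaks per window stayed at 1 for NR3C1, 0 for NR3C2, 0 for FKBP5 and 2 for KLF9 in each of 6 alternatives: a −log10 q of 5 or 10, a fold of 5, windows widened by 50 kb, overlap of 1 bp and merging within 500 bp. These counts could not change, since all 3 peaks are strong, no other lies within 50 kb, and a count of 0 stays 0 under a stricter cut. The same holds for densities under a stricter threshold and for those of the empty windows. The NR3C1 peak already had the genome-wide background, so its fold over that background was the same by construction. The number of settings that stayed is therefore no measure of robustness. With widened windows the density changed by construction, to 0.358 peaks per 100 kb at NR3C1 and 1.32 at KLF9. Without a pseudocount the NR3C1 fold was 29.8. Over the genome-wide background the fold of the first KLF9 peak was 19.8. The search for forkhead motifs in the peaks was not run, as it needs the hg19 sequence. No paired analysis was possible because each group has 1 library.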
